A study of Mus musculus with 20 samples.

Results

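The 10 genes described here lie beside Nr1h3 on mouse chromosome 2 and were chosen by name from a gene table of 55385 entries. They are Ddb2, Acp2, Madd, Pacsin3, Arfgap2, Ckap5, Lrp4, Slc39a13, Psmc3 and Spi1. All 10 had at least 178 counts in every library and were among the 18905 genes tested. RNA labelled as liver at week 24 was sequenced in 20 libraries, with 5 in each of 4 groups. The groups were labelled LXRα-/- mice on a high-fat diet (HFD), wild-type (WT) mice on HFD, labelled LXRα-/- mice on chow, and WT mice on chow. No label gives the strain, the age or the construct behind the name LXRα-/-, which comes from the sample titles, and the genotype field speaks of a knockdown instead. LXRα-/- is therefore used as a label throughout. The labels tie no library to an animal or a batch, and p-values therefore measure the spread between these libraries, which may be technical.

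Nr1h3 encodes LXRα, a nuclear receptor that is activated by oxysterols and controls genes of cholesterol efflux and fatty acid synthesis in the liver. The genes around it have no known function in common. They include a damage sensor of DNA repair, a lysosomal phosphatase, regulators of vesicle traffic, a zinc transporter, a proteasome subunit and the transcription factor PU.1. Genes packed this closely can start from a shared stretch of DNA or overlap on opposite strands, and reads from an overlap cannot be given to a gene unless the strand is counted.

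The 10 genes span 567 kb of chromosome 2, given here in the coordinates of the deposited table, which match GRCm38. Nr1h3 lies at 91184061 to 91202834 on the minus strand. Acp2, which encodes lysosomal acid phosphatase, lies at 91202885 to 91214098 on the plus strand and begins 51 bases beyond the end of Nr1h3, so that both genes are read away from a shared gap. Ddb2, the damage-binding subunit of the UV-DDB repair complex, lies at 91211572 to 91236960 on the minus strand and runs into Acp2 by 2527 bases. These overlapping stretches share 652 exonic bases, which are 23.8% of the exonic bases of Ddb2 and 12.6% of those of Acp2. Madd, an exchange factor for Rab3, lies on the other side, at 91137360 to 91183818, also on the minus strand. Its high-coordinate end, from which a gene on the minus strand is read, lies 243 bases short of Nr1h3. Pacsin3 (91255954 to 91264679), a membrane-bending endocytic adaptor, and Arfgap2 (91264974 to 91276931), a GTPase-activating protein of the COPI coat, both on the plus strand, are separated by 295 bases. Spi1, Slc39a13 and Psmc3 lie 69.7, 114 and 118 kb from Nr1h3 on the low-coordinate side, and Lrp4 and Ckap5 lie 255 and 324 kb away on the high-coordinate side.

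Overlaps touched 6 of the 10 genes, 5 of them with another tested gene. Psmc3 and Slc39a13 overlap on opposite strands by 4579 bases, of which 215 are exonic in both. The end of Arfgap2 overlaps 1110051M20Rik by 1864 bases on the opposite strand, and 33.4% of the exonic bases of Arfgap2 lie in shared exons. Neither the counting program nor its use of strand was given in the sources used here, so values of these pairs are uncertain by the reads that fall in the overlaps.

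The promoter windows of Acp2, Nr1h3, Pacsin3 and Arfgap2 are shown because Acp2, Pacsin3 and Arfgap2 are among the genes whose levels moved with genotype or diet in the results below, and Nr1h3 is the gene named in the genotype. Each window holds 250 bases before and 50 bases after the RefSeq start in GRCm38.p6, on the strand of the gene, 5′ to 3′. Capitals mark the CCAAT box (CCAAT or ATTGG) and the GC box (GGGCGG or CCGCCC), which were searched on both strands. Positions are those of the first base of a box, with -1 as the base before the start. The windows lie at chr2:91202662-91202961 (Acp2, plus), chr2:91195067-91195366 (Nr1h3, minus), chr2:91256563-91256862 (Pacsin3, plus) and chr2:91264865-91265164 (Arfgap2, plus).
Acp2: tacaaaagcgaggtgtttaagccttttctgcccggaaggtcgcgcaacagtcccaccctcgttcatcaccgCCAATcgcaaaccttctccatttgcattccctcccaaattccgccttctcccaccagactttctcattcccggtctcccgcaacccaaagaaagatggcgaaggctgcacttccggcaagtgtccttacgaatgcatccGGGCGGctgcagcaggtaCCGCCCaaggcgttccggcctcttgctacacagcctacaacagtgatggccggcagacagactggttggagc
Nr1h3: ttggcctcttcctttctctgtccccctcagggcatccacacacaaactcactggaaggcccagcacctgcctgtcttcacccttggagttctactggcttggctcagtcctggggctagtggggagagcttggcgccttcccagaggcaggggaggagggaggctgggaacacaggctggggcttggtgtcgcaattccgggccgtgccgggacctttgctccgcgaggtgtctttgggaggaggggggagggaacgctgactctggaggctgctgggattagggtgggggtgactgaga
Pacsin3: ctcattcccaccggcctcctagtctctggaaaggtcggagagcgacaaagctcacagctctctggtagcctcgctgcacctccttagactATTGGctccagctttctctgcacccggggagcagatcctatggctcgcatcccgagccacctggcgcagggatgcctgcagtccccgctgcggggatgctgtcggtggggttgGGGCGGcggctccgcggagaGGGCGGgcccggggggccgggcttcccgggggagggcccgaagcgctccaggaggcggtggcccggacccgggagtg
Arfgap2: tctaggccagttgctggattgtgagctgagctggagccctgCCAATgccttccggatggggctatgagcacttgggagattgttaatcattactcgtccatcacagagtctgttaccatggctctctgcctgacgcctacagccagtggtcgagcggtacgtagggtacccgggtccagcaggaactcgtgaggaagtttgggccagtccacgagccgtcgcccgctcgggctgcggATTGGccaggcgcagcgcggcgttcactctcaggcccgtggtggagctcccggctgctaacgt

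The Acp2 window held 1 CCAAT box at -179 and 2 GC boxes at -40 and -22, counted from the start. Its 19 CpG dinucleotides compare with a median of 7 over 32851 RefSeq promoter windows. The end of Nr1h3 in the deposited table lies 78 bases upstream of this RefSeq start and therefore inside the window. The RefSeq start of Nr1h3 shown here lies within the span that the table gives to Nr1h3, and its window held 8 CpG dinucleotides and neither box. A second RefSeq window of Nr1h3 held 10 CpG dinucleotides and neither box. The Pacsin3 window shown held 1 CCAAT box at -160 and 2 GC boxes at -47 and -27, with 24 CpG dinucleotides, and a second window of Pacsin3, at chr2:91257079-91257378, held 2 GC boxes at -97 and -90, no CCAAT box and 12 CpG dinucleotides. The Arfgap2 window held 2 CCAAT boxes at -209 and -13 and no GC box, with 21 CpG dinucleotides. A CCAAT box was in 37.4% and a GC box in 35.7% of all windows, so neither sets these genes apart. The receptor half-site AGGTCA (reverse TGACCT), in 16.3% of all windows, its DR4 repeat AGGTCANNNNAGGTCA (reverse TGACCTNNNNTGACCT), to which LXR heterodimers are known to bind, in 0.0152%, and the E-box CACGTG, in 7.15%, were searched as well, and no match was in these 4 windows. Of the windows not shown, one of Madd, at chr2:91179272-91179571, held the half-site at -98. No window was available for Ddb2, Psmc3, Spi1 and Lrp4. An absent match says only that these letters are not in these bases.

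The libraries held 75549139 to 108889938 counts. Mitochondrial genes took 9.77% to 29.6% of the counts in the 15 libraries of the other groups, against 3.89% to 5.67% in the WT chow libraries. The comparisons of genotype on chow, of diet in WT and of their difference all use the WT chow libraries. A fit with this share as a covariate is given beside the results it moved. Because the share in WT chow does not overlap that of the other groups, this fit cannot tell the share from the WT chow group. Leaving the mitochondrial genes out instead gave 8153 calls among 18795 genes on chow, against 8197 among 18905 with them. Summed hepatocyte markers (6 of 6 in the table) had 20729 to 74873 FPKM (fragments per kilobase of gene, scaled to depth) per library and adipocyte markers (5 of 5) 0.238 to 26.1, although the protocol text in the labels speaks of an adipose type of RNA.

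Nr1h3 itself was not reduced in the labelled LXRα-/- groups. On HFD it had 77.2, 10.3, 67.1, 73.9 and 70.9 FPKM in labelled LXRα-/- and 20.5, 18.7, 24.5, 14.3 and 17.5 in WT. On chow it had 46.6, 66.1, 58.9, 7.89 and 59.8 FPKM in labelled LXRα-/- and 40.1, 32.8, 35.9, 41.3 and 45.3 in WT. In each diet 1 labelled LXRα-/- library lay below every WT library and the other 4 lay above every WT library. The log2 fold change was 1.44 on HFD (SE 0.44, edgeR adjusted p = 0.145) and 0.26 on chow (SE 0.43, adjusted p = 0.662). Over both diets it was 0.85 (SE 0.31, edgeR adjusted p = 0.0356), which passed, as it did in 15 of 31 other settings. DESeq2 gave 1.42 on HFD (adjusted p = 0.0412). Counts per gene give no exon detail, and whether part of the transcript was missing cannot be told from them.

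**Figure D1:**
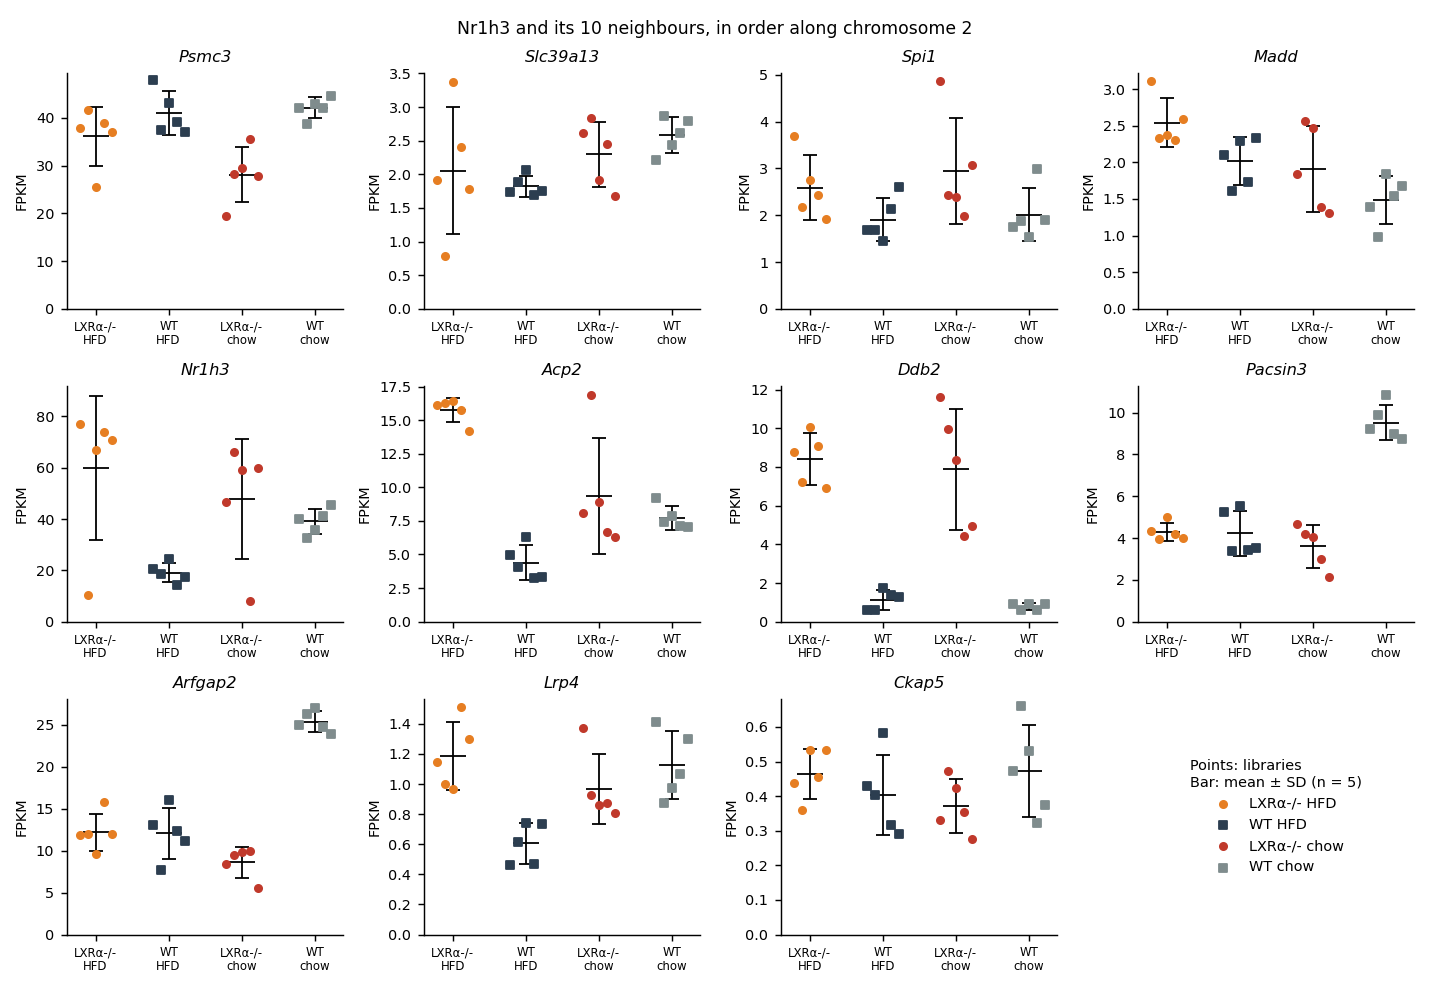
FPKM of the 10 neighbours and Nr1h3 in each library, by group, with 1 panel per gene in chromosome order. Points are libraries and bars the mean with SD (n = 5 per group). Ddb2 lay at 4.42 or more in all labelled LXRα-/- libraries and at 1.73 or less in all WT libraries.

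On HFD, the genes Ddb2 and Acp2 rose in labelled LXRα-/- livers and none of the 10 neighbours fell. These 2 of 10 compare with 0.455% of the 18905 tested genes called in this comparison and 0.254% called higher. The median log2 fold change of the 10 was 0.07, against 0.03 over all tested genes. The 10 genes were chosen with earlier results of these data known.

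Ddb2 had 8.79, 7.23, 10.1, 9.07 and 6.90 FPKM in labelled LXRα-/- HFD libraries, against 0.598, 0.612, 1.73, 1.38 and 1.27 in WT HFD libraries. Every labelled LXRα-/- library was above every WT library, and the WT values split into a lower pair and a higher trio. Labelled LXRα-/- averaged 8.41 ± 1.32 FPKM, against 1.12 ± 0.499 in WT (SD, n = 5 each). The log2 fold change was 2.72 (SE 0.28, 95% interval 2.17 to 3.27, edgeR adjusted p = 9.72e-05), or 6.60-fold. Over 32 other settings of the test it stayed between 2.17 and 2.91 and passed in all of them.

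Acp2 had 16.1, 16.3, 16.4, 15.8 and 14.2 FPKM in labelled LXRα-/- HFD libraries, against 4.93, 4.09, 6.33, 3.25 and 3.34 in WT HFD libraries. The groups were far apart, and the labelled LXRα-/- values lay close together. Labelled LXRα-/- averaged 15.8 ± 0.900 FPKM, against 4.39 ± 1.28 in WT (SD, n = 5 each). This was a log2 fold change of 1.65 (SE 0.19, 95% interval 1.27 to 2.02, edgeR adjusted p = 0.000361), or 3.13-fold. It lay between 1.56 and 1.86 over the 32 other settings and passed in all of them. Over all tested genes, 7.99% had every labelled LXRα-/- HFD library above every WT HFD library, and 0.804% had every one below.

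Lrp4, a receptor of the LDL receptor family known for its part in agrin and Wnt signalling, was the other neighbour whose HFD groups did not overlap. It had 1.15, 1.001, 0.969, 1.51 and 1.299 FPKM in labelled LXRα-/- HFD libraries, against 0.465, 0.617, 0.739, 0.472 and 0.738 in WT HFD libraries. The log2 fold change of 0.77 (SE 0.20, 95% interval 0.38 to 1.16) missed the threshold, with an edgeR adjusted p of 0.0868. DESeq2 gave 0.76 with an adjusted p of 0.0216, and library totals in place of TMM factors, which moved the median of all genes to 0.23 from 0.03, gave 0.97 with an edgeR adjusted p of 0.0363. Over 32 other settings the value ran from 0.44 to 0.97 and passed in 4, namely these and both limma fits.

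**Figure D2:**
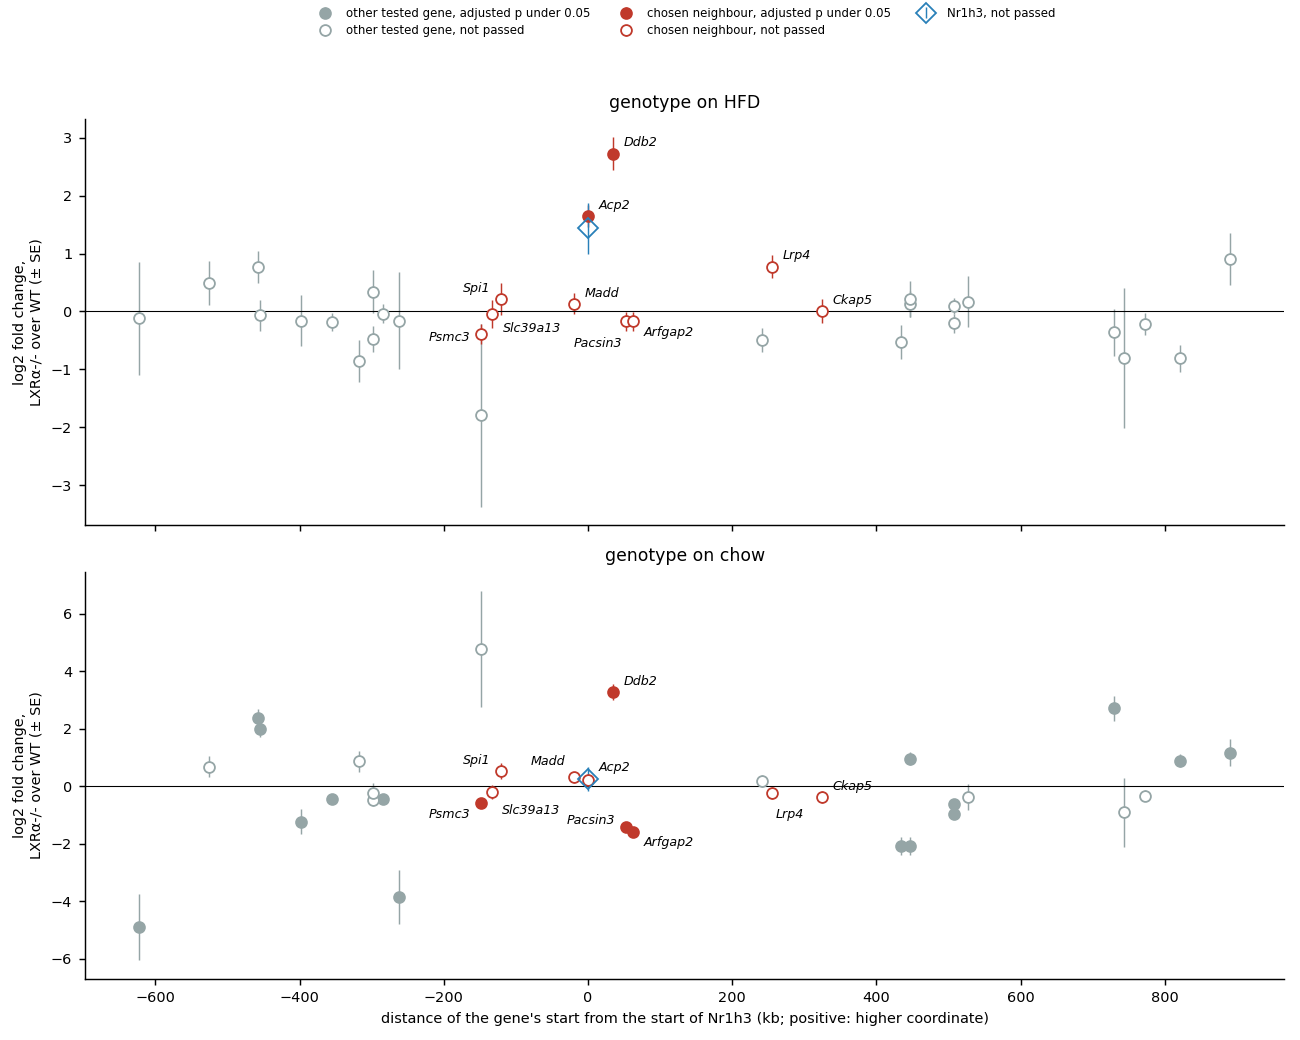
Log2 fold change of labelled LXRα-/- over WT (± SE) for the 34 tested genes within 1 Mb of Nr1h3 and for Nr1h3, against the distance of each gene's start from the start of Nr1h3, on HFD (upper) and chow (lower). Filled points passed an edgeR adjusted p of 0.05. On HFD the filled points are Ddb2 and Acp2, and on chow 19 genes of both directions are filled, across the whole region.

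The other genes of the wider region were compared as well. Of the 24 other tested genes within 1 Mb of Nr1h3, 0 passed on HFD with edgeR, near the 0.455% of all tested genes. Their log2 fold changes were -1.79 to 0.90, with a median of -0.16. DESeq2 called 4 of the 34 tested neighbours on HFD, namely Ddb2, Acp2, Lrp4 and Creb3l1, the last lower. It called 533 of all 18905 tested genes there, against 86 with edgeR. Madd, whose span ends 243 bases from Nr1h3, had 3.11, 2.33, 2.37, 2.31 and 2.59 FPKM in labelled LXRα-/- HFD libraries and 2.11, 1.61, 2.30, 1.73 and 2.33 in WT HFD libraries. These groups overlapped, and the log2 fold change was 0.13 (SE 0.18, 95% interval -0.22 to 0.49, edgeR adjusted p = 0.801). The nearest neighbours of Nr1h3 on its 2 sides therefore gave different results, with Acp2 past the threshold and Madd not, and the difference between these genes was not tested.

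Because Ddb2 and Acp2 overlap, the ratio of their counts was compared between genotypes. It would stay the same if the counts of both genes moved by 1 factor. On HFD the ratio of Ddb2 to Acp2 counts was 0.234 to 0.324 in labelled LXRα-/- libraries and 0.0643 to 0.223 in WT libraries. On chow it was 0.312 to 0.759 in labelled LXRα-/- libraries and 0.0435 to 0.0674 in WT libraries. No labelled LXRα-/- library overlapped a WT library of its diet. On the log2 scale the ratio averaged -1.84 ± 0.19 in labelled LXRα-/- and -2.97 ± 0.80 in WT on HFD, a difference of 1.13 (SD, n = 5 each), with p = 0.00794 in an exact two-sided permutation test. On chow it averaged -1.17 ± 0.50 in labelled LXRα-/- and -4.23 ± 0.28 in WT, a difference of 3.06 (SD, n = 5 each), and an exact two-sided permutation test gave p = 0.00794. This p is the smallest that the 252 arrangements allow. The ratio rests on the same counts and libraries as the genotype comparisons of Ddb2 and Acp2, so it is not separate evidence.

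**Figure D3:**
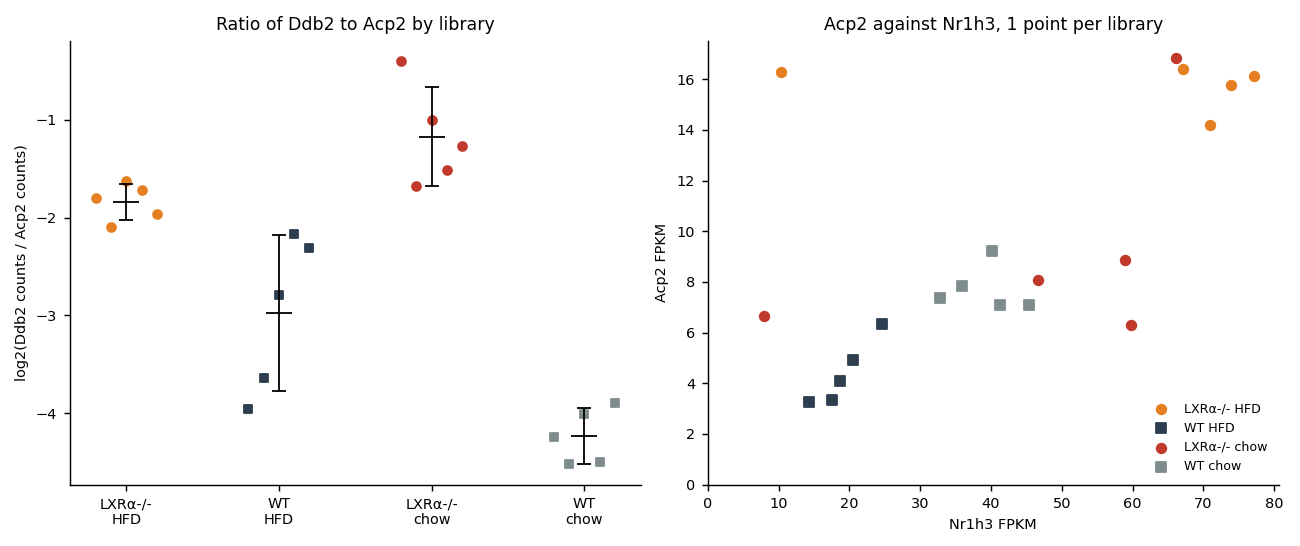
Left, log2 ratio of Ddb2 to Acp2 counts in each library, by group, with the mean and SD (n = 5 per group), which was higher in every labelled LXRα-/- library than in any WT library of its diet. Right, Acp2 FPKM against Nr1h3 FPKM with 1 point per library, where 2 labelled LXRα-/- libraries stand apart at Nr1h3 values of 10.3 (HFD) and 7.89 (chow).

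Acp2 was also set beside Nr1h3, from which it is read in the opposite direction. The ratio of Acp2 to Nr1h3 counts was 0.413 to 0.504 in 4 of the labelled LXRα-/- HFD libraries and 0.393 to 0.532 in WT HFD libraries. It was 0.217 to 0.526 in 4 of the labelled LXRα-/- chow libraries and 0.322 to 0.474 in WT chow libraries. The remaining libraries, the same ones in which Nr1h3 was low, had ratios of 3.25 on HFD and 1.74 on chow. In these libraries Acp2 stood at 16.3 FPKM on HFD, beside 14.2 to 16.4 in the other 4, and at 6.67 on chow, beside 6.30 to 16.8 in the other 4. Low Nr1h3 in a labelled LXRα-/- library therefore did not come with Acp2 outside the range of its group.

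On chow, Ddb2 rose in labelled LXRα-/- livers while Pacsin3, Arfgap2 and Psmc3 fell. These 4 of 10 compare with 43.4% of all tested genes called on chow, so the number of calls among the neighbours was near the background. The median log2 fold change of the 10 was -0.22, against 0.08 over all tested genes. With the mitochondrial share of each library as a covariate, 1 of the 10, Ddb2, still passed, beside 182 of all tested genes. Taking both diets together, 5 of the 10 passed for genotype (Ddb2 and Acp2 higher, Pacsin3, Arfgap2 and Psmc3 lower), beside 37.7% of all tested genes. With the covariate, 2 of the 10 remained called over both diets, beside 189 of all 18905 tested genes. In that fit Pacsin3 had -0.75 (edgeR adjusted p = 0.110), Arfgap2 -0.54 (adjusted p = 0.194) and Psmc3 -0.12 (adjusted p = 0.838).

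Ddb2 had 11.6, 9.96, 8.39, 4.42 and 4.97 FPKM in labelled LXRα-/- chow libraries, against 0.916, 0.600, 0.915, 0.592 and 0.899 in WT chow libraries. The lowest labelled LXRα-/- value was several times the highest WT value, and 13.5% of tested genes had their chow groups apart in this direction. Labelled LXRα-/- averaged 7.88 ± 3.13 FPKM, against 0.784 ± 0.172 in WT (SD, n = 5 each). The log2 fold change was 3.28 (SE 0.29, 95% interval 2.72 to 3.85, edgeR adjusted p = 1.18e-07), or 9.74-fold, and it lay between 2.24 and 3.43 over the 32 other settings. The rise of Ddb2 on HFD did not differ detectably from that on chow, with an interaction of -0.56 (SE 0.37, 95% interval -1.29 to 0.17, edgeR adjusted p = 0.318).

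Acp2, in contrast, overlapped between genotypes on chow. It had 8.09, 16.8, 8.87, 6.67 and 6.30 FPKM in labelled LXRα-/- chow libraries, against 9.21, 7.38, 7.83, 7.09 and 7.08 in WT chow libraries. A single labelled LXRα-/- library, the second, was above the WT range by a wide margin. The log2 fold change was 0.22 (SE 0.19, 95% interval -0.14 to 0.59, edgeR adjusted p = 0.356), and it was -0.01 in the fit without that library.

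Pacsin3 had 4.69, 4.18, 4.07, 3.01 and 2.13 FPKM in labelled LXRα-/- chow libraries, against 9.23, 9.87, 10.8, 8.96 and 8.74 in WT chow libraries. Arfgap2, which starts 295 bases after it, had 8.34, 9.46, 9.82, 9.90 and 5.48 FPKM in labelled LXRα-/- chow libraries, against 24.96, 26.2, 26.97, 24.7 and 23.9 in WT chow libraries. Both genes had every labelled LXRα-/- library below every WT library, as did 14.5% of tested genes. The log2 fold change was -1.43 for Pacsin3 (SE 0.17, edgeR adjusted p = 2.97e-06) and -1.59 for Arfgap2 (SE 0.17, edgeR adjusted p = 9.53e-07). With the mitochondrial share as a covariate these were -1.34 (edgeR adjusted p = 0.0912) and -0.98 (edgeR adjusted p = 0.164). The count ratio of Pacsin3 to Arfgap2 ranged from 0.282 to 0.591 over all 20 libraries, and on the log2 scale it averaged -1.20 ± 0.32 in labelled LXRα-/- chow and -1.35 ± 0.06 in WT chow (SD, n = 5 each).

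Psmc3, an ATPase of the ring that unfolds proteins for the 26S proteasome, had 19.4, 28.2, 29.4, 35.7 and 27.9 FPKM in labelled LXRα-/- chow libraries, against 42.1, 38.7, 43.0, 42.1 and 44.6 in WT chow libraries. The groups did not overlap, and the log2 fold change was -0.59 (SE 0.17, edgeR adjusted p = 0.00892). With the mitochondrial share as a covariate it was 0.08 (edgeR adjusted p = 0.951), so neither the direction nor the call held. On HFD Psmc3 had 37.9, 41.6, 25.5, 38.8 and 36.9 FPKM in labelled LXRα-/- libraries and 47.9, 37.4, 43.2, 39.2 and 37.0 in WT libraries, with a log2 fold change of -0.38 (SE 0.17, edgeR adjusted p = 0.321).

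Of the 24 other tested genes within 1 Mb, 15 passed on chow (62.5%), where 6 rose and 9 fell, beside 43.4% of all tested genes. The 6 with the smallest p included Fnbp4, which encodes a formin-binding protein, with a log2 fold change of 2.38 (SE 0.29, edgeR adjusted p = 3.38e-06) on chow and 0.77 (adjusted p = 0.209) on HFD. The pseudogene Rpl30-ps3, which lies inside the span of Fnbp4, changed by 2.005 on chow and had a value of -0.07 on HFD, and reads of near-identical copies may be split with it. Prothrombin (F2), a clotting factor made by hepatocytes, had 91.7 ± 41.0 FPKM in labelled LXRα-/- chow and 383 ± 32.1 in WT chow (SD, n = 5 each), a log2 fold change of -2.08 (SE 0.30, edgeR adjusted p = 2.2e-05). The GTPase-activating protein gene Arhgap1 fell by 2.08 and the autophagy gene Atg13 fell by 0.97 on the log2 scale, while the growth factor gene Mdk rose by 2.71, all on chow. With the mitochondrial share as a covariate, 1 of the 34 tested neighbours passed on chow, against 19 without it, and over all genes 182 passed, against 8197.

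**Figure D4:**
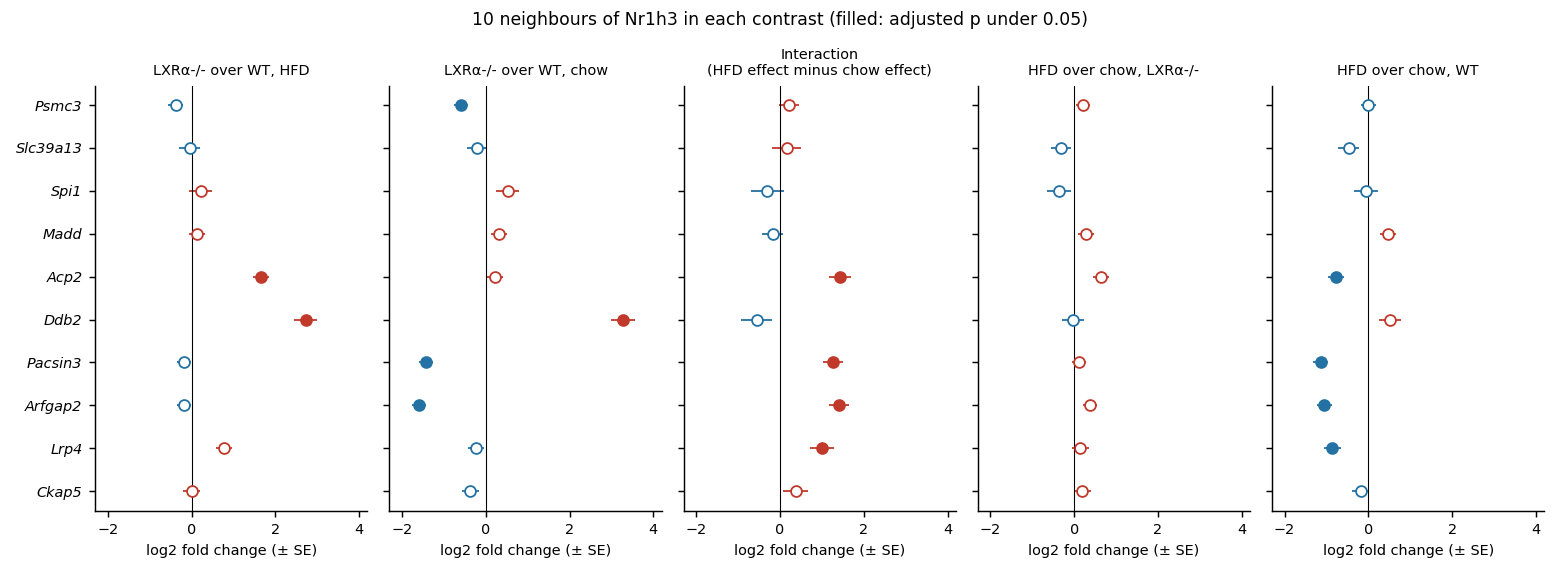
Log2 fold changes of the 10 neighbours (± SE) in 5 comparisons, which are genotype on HFD, genotype on chow, their difference (the interaction), diet in labelled LXRα-/- and diet in WT. Red points are above 0 and blue points below, and filled points passed an edgeR adjusted p of 0.05. Acp2, Pacsin3, Arfgap2 and Lrp4 are filled in the interaction and in diet in WT, and no point is filled for diet in labelled LXRα-/-.

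The difference between genotypes was itself different between the diets for Acp2, Arfgap2, Pacsin3 and Lrp4. These 4 of 10 compare with 19.4% of all tested genes called in the interaction, and all 4 were higher, as were 10.2% of tested genes. The interaction, as genotype on HFD minus genotype on chow, was 1.43 for Acp2 (SE 0.27, edgeR adjusted p = 0.00105), 1.42 for Arfgap2 (SE 0.24, adjusted p = 0.000474), 1.26 for Pacsin3 (SE 0.24, adjusted p = 0.00129) and 1.005 for Lrp4 (SE 0.28, adjusted p = 0.0159). With the mitochondrial share as a covariate the interaction was smaller for Acp2, at 0.92 (edgeR adjusted p = 0.297), and for Arfgap2, at 0.88 (adjusted p = 0.246). It was about as large for Pacsin3, at 1.18 (edgeR adjusted p = 0.143), and larger for Lrp4, at 1.61 (adjusted p = 0.0808), so that none of the 4 passed in that fit. Of all 18905 tested genes, 76 passed there.

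The comparison of diets within a genotype shows which groups carried this. In WT livers the same 4 genes fell on HFD and none of the 10 rose, beside 29.3% of all tested genes called (15.0% lower). The 2 comparisons share the WT libraries, so the calls are not separate evidence. Acp2 averaged 4.39 ± 1.28 FPKM in WT HFD and 7.72 ± 0.889 in WT chow, Pacsin3 4.23 ± 1.07 in WT HFD and 9.53 ± 0.845 in WT chow, and Arfgap2 12.03 ± 3.01 in WT HFD and 25.3 ± 1.23 in WT chow (SD, n = 5 each). The log2 fold changes of HFD over chow in WT were -0.78 for Acp2 (edgeR adjusted p = 0.0038), -1.14 for Pacsin3 (adjusted p = 6.54e-05) and -1.05 for Arfgap2 (adjusted p = 0.00013). Lrp4 had 0.465 to 0.739 FPKM in WT HFD and 0.877 to 1.41 in WT chow, a log2 fold change of -0.86 (SE 0.20, edgeR adjusted p = 0.00282). For these 4 genes, and for Slc39a13 and Nr1h3, every WT HFD library lay below every WT chow library, which held for 12.3% of tested genes. With the mitochondrial share as a covariate, Pacsin3 and Lrp4 still passed, while Acp2 had -0.44 (edgeR adjusted p = 0.347) and Arfgap2 had -0.70 (edgeR adjusted p = 0.0723). Of all 18905 tested genes, 1463 passed for diet in WT in that fit.

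In labelled LXRα-/- livers none of the 10 genes passed for diet with edgeR, and 3 of all tested genes did (0.0159%). At least 1065 of the 18905 tested genes had an unadjusted edgeR p under 0.05 for diet here. Among the 10 there were 2. These were Acp2, with a log2 fold change of 0.65 (SE 0.19, 95% interval 0.28 to 1.01, edgeR adjusted p = 0.482), and Arfgap2, with 0.37 (SE 0.17, edgeR adjusted p = 0.725). Acp2 had 14.2 to 16.4 FPKM in labelled LXRα-/- HFD and 6.30 to 16.8 in labelled LXRα-/- chow, where the second library alone reached the HFD range. DESeq2 and the other settings also gave 0 calls among the 10.

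Madd, Slc39a13, Ckap5 and Spi1 passed in no comparison in the fit over all 20 libraries, although other settings called Madd, Slc39a13 and Spi1, as given here. Madd had 1.304 to 2.57 FPKM in labelled LXRα-/- chow and 0.983 to 1.85 in WT chow, a log2 fold change of 0.31 (95% interval -0.05 to 0.67, edgeR adjusted p = 0.180). For HFD over chow in WT, Madd had 0.46 (95% interval 0.10 to 0.82, edgeR adjusted p = 0.064), and it passed with a filter of 50 counts in 5 libraries (0.50, edgeR adjusted p = 0.0364) and with DESeq2 (0.49, adjusted p = 0.039). Slc39a13, a zinc transporter of the ZIP family, ranged from 0.778 to 3.37 FPKM in labelled LXRα-/- HFD and from 1.69 to 2.06 in WT HFD, so the spread in labelled LXRα-/- spanned the whole WT range. Its log2 fold change was -0.05 on HFD (95% interval -0.53 to 0.43, edgeR adjusted p = 0.962) and -0.21 on chow (95% interval -0.69 to 0.27, adjusted p = 0.525). For HFD over chow in WT it was -0.47 (95% interval -0.95 to 0.01, edgeR adjusted p = 0.159), and -0.44 with an adjusted p of 0.0464 when only the WT groups were fitted. Ckap5, a microtubule polymerase, was the lowest of the 10, with 0.276 to 0.662 FPKM over all libraries. Its log2 fold change was 0.00 on HFD (95% interval -0.40 to 0.40, edgeR adjusted p = 0.998) and -0.37 on chow (95% interval -0.77 to 0.03, adjusted p = 0.158).

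Spi1 encodes PU.1, which drives macrophage and other myeloid fates and is low in hepatocytes. It had 3.70, 2.17, 2.74, 2.42 and 1.91 FPKM in labelled LXRα-/- HFD libraries and 1.68, 1.68, 1.44, 2.14 and 2.60 in WT HFD libraries. On chow it had 4.86, 2.42, 2.38, 1.98 and 3.08 FPKM in labelled LXRα-/- libraries and 1.75, 1.88, 1.53, 2.999 and 1.90 in WT libraries. The groups overlapped in both diets, and the log2 fold change was 0.22 on HFD (95% interval -0.33 to 0.76, edgeR adjusted p = 0.782) and 0.52 on chow (95% interval -0.02 to 1.07, adjusted p = 0.136). Without WT chow library 4, the highest of its group, the chow value was 0.78 and passed (edgeR adjusted p = 0.0265), and with the mitochondrial share as a covariate it was -0.51 and did not. Over both diets the genotype value of Spi1 was 0.37 (edgeR adjusted p = 0.146) and ran from -0.18 to 0.51 in 31 other settings. It passed in 4 of them, namely library totals, both limma fits and the fit without WT chow library 4. The 14 other myeloid genes of a list held 3 that rose (Csf2ra, Csf3r and Tyrobp) and 1 that fell (Cd14) on chow, a smaller share than the 43.4% of all tested genes called there, and none passed on HFD.

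Markers of resident liver macrophages (5 of 5 in the table) summed to 4.79 to 10.3 FPKM in labelled LXRα-/- HFD and 24.0 to 34.5 in WT HFD, and to 6.55 to 28.6 in labelled LXRα-/- chow and 49.4 to 85.1 in WT chow. Markers of recruited monocytes and macrophages (4 of 4) summed to 1.27 to 2.49 FPKM in labelled LXRα-/- HFD and 0.542 to 1.02 in WT HFD, and to 1.03 to 3.09 in labelled LXRα-/- chow and 0.220 to 0.735 in WT chow. Both sums moved with the label without overlap, in opposite directions. Of the single markers, 2 of 5 resident ones fell and 1 of 4 recruited ones rose on HFD, beside 0.455% of all tested genes called. On chow 5 of 5 resident ones fell and 3 of 4 recruited ones rose, beside 43.4% of all tested genes. The part of these sums in the values of Spi1 and of the other neighbours was not tested. In whole tissue, fewer cells of a type and less RNA per cell cannot be told apart.

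By level per length, Psmc3 was the highest and Ckap5 the lowest of the 10 in all 4 groups. Ddb2 had rank 4 in both labelled LXRα-/- groups, after Acp2 and Arfgap2, against rank 8 in WT HFD and rank 9 in WT chow. Neighbours in this order often lay within their spread. In labelled LXRα-/- HFD, Spi1 at 2.59 ± 0.691, Madd at 2.54 ± 0.337 and Slc39a13 at 2.05 ± 0.946 FPKM overlapped (SD, n = 5 each). In labelled LXRα-/- chow, Acp2 at 9.35 ± 4.32, Arfgap2 at 8.60 ± 1.85 and Ddb2 at 7.88 ± 3.13 FPKM overlapped as well.

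No gene passed on HFD in any of the 10 lists of partners compiled for the products of the neighbours. Only 0.455% of all tested genes passed there, so 0 calls in lists of this size are near the background. Of 17 genes of DNA damage recognition and excision repair, the partners of Ddb2, 0 passed on HFD, and the smallest p belonged to Ercc5 (log2 fold change 0.94, SE 0.26, edgeR adjusted p = 0.110), Xpa (0.43, adjusted p = 0.210) and Ercc6 (0.57, adjusted p = 0.256). On chow 3 of them rose and 7 fell, among which Ddb1, the partner subunit of Ddb2 in UV-DDB, had -1.94 (SE 0.15, edgeR adjusted p = 4.34e-08). Of 12 lysosomal enzymes, membrane proteins and sorting factors beside Acp2, 0 passed on HFD, where Gnptab had 0.87, Ctsb -0.38 and Hexa -0.31. On chow 1 rose, the tartrate-resistant phosphatase Acp5, and 7 fell, among them Lamp1 and Ctsd. These counts stand beside 0.455% of genes called on HFD and 43.4% on chow.

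In the remaining lists, the COPI coat genes beside Arfgap2 held 0 rises and 7 falls among 11 tested on chow, with a median log2 fold change of -0.71 against 0.08 over all genes, and Arfgap3, Copz1 and Cope had -0.72, -0.34 and -0.34 on HFD. The list beside Slc39a13, ZIP zinc importers and the exporter Slc30a7, held 0 rises and 7 falls of 12 on chow, and Slc39a7, Slc39a3 and Slc39a1 had -1.86, -0.78 and -0.36 on HFD. The list beside Madd, Rab3 cycle genes and the TNF receptor gene Tnfrsf1a, held 0 rises and 5 falls of 8 on chow, with Rab3d, Tnfrsf1a and Rab3b at -0.73, -0.25 and -0.95 on HFD. Proteasome genes beside Psmc3 held 1 rise and 3 falls of 8 on chow, with Psmd4, Psmc2 and Psmd2 at -0.57, -0.34 and -0.51 on HFD. Of the 8 endocytic partners of Pacsin3, 0 rose and 1 fell on chow, and Cavin1, Cav1 and Wasl had -0.92, 0.96 and 0.35 on HFD. Of the 11 microtubule plus-end genes beside Ckap5, 1 rose and 2 fell on chow, and Slain2, Clasp2 and Tacc1 had 0.95, 0.49 and -0.15 on HFD. Of 4 tested genes of agrin and Wnt co-receptor signalling beside Lrp4, 2 rose and 1 fell on chow, and Lrp5, Apoe and Agrn had -0.69, -0.44 and 0.34 on HFD. Of the myeloid genes beside Spi1, Csf2ra, Csf3r and Cd14 had 0.84, 0.69 and -1.49 on HFD. The background for the chow counts of all lists was 4225 rises and 3972 falls among 18905 tested genes. Once the mitochondrial share was fitted, 182 tested genes passed there, against 8197 otherwise. How the lists fared in that fit was not tested.

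The genes whose log2 counts, scaled to library size, followed Ddb2 most closely over the 20 libraries were H2-M2 (Pearson r = 0.961), Ccr3 (0.955), 9030622O22Rik (0.926), Rev1 (0.926) and Cdk8 (0.924). The 20 points fall into groups that share genotype and diet, so these values describe the pattern and carry no test. H2-M2, a nonclassical class I histocompatibility gene on chromosome 17, had 19 to 48 counts in labelled LXRα-/- HFD libraries and 0 in WT HFD libraries, and 28 to 226 in labelled LXRα-/- chow libraries and 0 in WT chow libraries. Ccr3, the eotaxin receptor gene on chromosome 9, had 38 to 119 counts in labelled LXRα-/- HFD libraries and 0 in WT HFD libraries, and 33 to 211 in labelled LXRα-/- chow libraries and 0 to 4 in WT chow libraries. The unnamed transcript 9030622O22Rik is on chromosome 2, with 11.98 to 19.3 FPKM in labelled LXRα-/- HFD and 3.22 to 5.36 in WT HFD, and 12.2 to 33.3 in labelled LXRα-/- chow and 1.36 to 1.78 in WT chow. Rev1, a translesion DNA polymerase, had 1.65 to 2.72 FPKM in labelled LXRα-/- HFD and 0.473 to 1.20 in WT HFD, and 1.297 to 2.79 in labelled LXRα-/- chow and 0.483 to 0.935 in WT chow. Cdk8, a kinase of the Mediator complex, had 1.42 to 2.17 FPKM in labelled LXRα-/- HFD and 0.536 to 1.09 in WT HFD, and 1.083 to 2.50 in labelled LXRα-/- chow and 0.657 to 1.089 in WT chow, where the groups overlapped.

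The pattern of Acp2 was followed most closely by Fbxl4 (r = 0.832), Fchsd2 (0.801), Gm20498 (0.797), Zkscan4 (0.789) and Dnah2 (0.786). None of these 5 lies on chromosome 2. Fbxl4 had 1.96 to 2.47 FPKM in labelled LXRα-/- HFD and 0.893 to 1.33 in WT HFD, and 1.46 to 2.45 in labelled LXRα-/- chow and 1.46 to 2.20 in WT chow. Ddb2 and Acp2 had an r of 0.652, and Acp2 was 2027th among the genes ordered by likeness to Ddb2.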

How the data were processed

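Whole-number counts per gene and FPKM beside them were deposited for 20 libraries, per the file headers. Libraries held paired reads of poly(A)-selected RNA, per the labels' protocols. Bowtie 0.12.2, HISAT2 2.0, StringTie 1.3.0 and the build mm8 stand without role or order in the submitters' processing notes. Of the gene IDs, 55144 were in GENCODE M21 of GRCm38, 99.6% with the same start and 94.4% with the same end. The coordinates therefore match GRCm38, whose exons and RefSeq promoter windows were used.

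Counts were fitted with edgeR 4.0.16 in R 4.3.3 (filterByExpr, TMM factors, quasi-likelihood F test, 1 mean per group over all 20 libraries). Benjamini-Hochberg adjustment ran over 18905 genes for two-sided tests at a threshold of 0.05. SE values come from the F statistic, and 95% intervals are normal. Two-sided exact permutation tests compared count ratios. Limma 3.58.1, on log2(FPKM + 1) and log2(FPKM + 0.1), and DESeq2 1.42.0 were alternatives, as were other scalings and filters, the replicate number as a block, the mitochondrial share as a covariate and leaving out each library. The procedure was tested on simulated counts in which 200 genes changed. Many more genes passed on chow in these data, so that test does not cover a comparison of this kind. Totals of 75549139 to 108889938 counts per library keep the counting error of these genes small beside the spread between libraries, and reads in overlaps add an error that was not measured.

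The 10 genes, the partner lists and the marker lists were chosen with earlier results of these data known. Named besides the 10 genes and Nr1h3 are the 6 other genes within 1 Mb with the smallest p on either diet among those past the threshold, the 5 genes most like Ddb2 and the 5 most like Acp2 by Pearson correlation, and from each partner list the 3 genes with the smallest p on HFD. Ddb1, Acp5, Lamp1, Ctsd, Tyrobp, Creb3l1 and Slc30a7 were named after their values were seen.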

Additional observations from a re-analysis of the deposited data

Results flagged for a closer look

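Among 44 groups of 5 libraries, 1 library stood far from the other 4 in 6, where chance alone gives about 1 in 20 groups. Acp2 reached 16.8 FPKM in labelled LXRα-/- chow library 2 and, at 14.2, was lowest among the labelled LXRα-/- HFD libraries in library 5. Lrp4 reached 1.375 FPKM in labelled LXRα-/- chow library 1. Psmc3 had 25.5 FPKM in labelled LXRα-/- HFD library 3, below the rest of its group. Nr1h3 had 10.3 FPKM in labelled LXRα-/- HFD library 2, where Acp2 was within the range of its group. Spi1 had 2.999 FPKM in WT chow library 4, the library without which its genotype value on chow passed the threshold.

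The difference between genotypes differed between diets, by the interaction term of edgeR, in 4 neighbours. On the log2 scale, the fold change on HFD minus that on chow was 1.43 for Acp2, 1.42 for Arfgap2, 1.26 for Pacsin3 and 1.005 for Lrp4. All of these rest on the WT chow libraries, whose mitochondrial share was lower than in every other library. A fit with that share as a covariate cannot tell it from the WT chow group. None passed there, where Acp2 had 0.92, Arfgap2 0.88, Pacsin3 1.18 and Lrp4 1.61, and 76 of all tested genes passed.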

How the results depend on the processing

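Across 32 alternatives, 2044 of 2090 values of the 10 neighbours and Nr1h3 kept their side of the threshold and, where called, their direction, 27 lost the call, 18 gained one and 1, Psmc3 on chow, lost it with a change of sign. The cause was not tested. Values that had not been called changed sign in 56 cases. The mitochondrial share as a covariate, which does not overlap between WT chow and the other groups, left 1 of the 10 called on chow (4 without it), 2 over both diets (5), 2 for diet in WT (4) and 0 in the interaction (4), 1 of 34 tested neighbours on chow (19), and turned the chow value of Psmc3 to 0.076. That fit called 182 of all tested genes on chow, 189 over both diets, 1463 for diet in WT and 76 in the interaction. DESeq2 called 4 of 34 neighbours on HFD, against 2 with edgeR, and 533 of all tested genes, against 86. Leaving out 1 library at a time gave 2 to 2 of the 10 on HFD, 4 to 5 on chow, 5 to 6 over both diets, 4 to 4 for diet in WT, 0 to 0 for diet in labelled LXRα-/- and 4 to 4 in the interaction. It gave 2 to 2 of 34 neighbours on HFD and 16 to 20 on chow. The log2 ratio of Ddb2 to Acp2, as labelled LXRα-/- minus WT, then differed by 0.885 to 1.33 on HFD and 2.87 to 3.19 on chow. Same-numbered libraries had correlations of -0.123 to 0.0836, so the numbers were not taken as pairs. With the replicate block those differences in the log2 ratio kept their sizes of 1.13 and 3.06 with an exact p of 0.0625, the smallest that 5 pairs allow. Of the single genes the block ended only the call of Nr1h3 over both diets (0.80, edgeR adjusted p = 0.07). That call also ended without any 1 of 12 libraries, with limma and with the mitochondrial share as a covariate (0.68, edgeR adjusted p = 0.6425). Fits of only the groups compared gave no value over both diets or for the interaction.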
